A study of Arabidopsis thaliana with 9 samples.

Results

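Nascent RNA of nrpe1-11 leaves was compared with that of Col-0 leaves, gene by gene. Members were all nuclear genes of the 5 chromosomes with at least 20 read counts in either nuclear run-on library, which left 15388 of 32399 genes. Both libraries reached 20 counts for 8463 of them, while 6887 entered through nrpe1-11 alone and 38 through Col-0 alone. The filter cuts through a continuous range, since 145 genes had a highest count of 20 and 156 genes just outside it had 19.

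Col-0 is the wild-type accession of Arabidopsis thaliana, and nrpe1-11 is a mutant line in the same species carrying an allele of NRPE1, which encodes the largest subunit of RNA polymerase V (Pol V). A second mutant, nrpd1-3, carries an allele of the gene for the largest subunit of Pol IV. Leaves came from plants 3 weeks old, kept at 22 °C in a long-day cycle (light for 16 h, darkness for 8 h). In a nuclear run-on, polymerases already engaged on DNA in isolated nuclei extend their transcripts with a labelled nucleotide, here biotin-UTP, and streptavidin beads pull out the labelled RNA. Steady-state nuclear RNA was also sequenced from each genotype. There was 1 library for each assay and genotype, so no comparison here has a replicate or a test across plants. How many plants or leaves were pooled was not given in the sources used here.

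Pol V is a plant relative of Pol II that transcribes noncoding RNA at transposons and other repeats. These transcripts act as scaffolds that bring small RNAs bound to ARGONAUTE proteins, and with them DNA methyltransferases, to the locus, a process called RNA-directed DNA methylation. Pol IV acts earlier in this pathway and makes the precursors of the small RNAs. The series asks whether loss of either polymerase affects transcription by Pol II.

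Depth differed between the libraries compared. Genes held 2687149 counts in the Col-0 library, 7504294 in nrpe1-11 and 8185846 in nrpd1-3. Alignments to more than one place, assigned to no gene, made up 79.8% of all alignments tallied in Col-0, 47.8% in nrpe1-11 and 48.4% in nrpd1-3. Ribosomal RNA genes took 30.3% of the Col-0 gene counts and 6.66% of those of nrpe1-11. After trimmed-mean (TMM) scaling, which sets library size by the bulk of genes, 20 counts corresponded to a level of 9.95 in Col-0 and 2.15 in nrpe1-11 in CPM, counts scaled to library size. A gene is called higher or lower when its log2 ratio (log2 CPM, prior count of 2) reaches 1 or -1 and its 95% counting interval excludes equal levels. This size rule is no test between genotypes, and its intervals, as well as floors of 3 counts used against a count of 0, cover counting error only.

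By the size rule 1944 of the 15388 genes (12.6%) stood higher in nrpe1-11 and 1633 (10.6%) lower, 23.2% in all. The median log2 ratio was 0.05, with quartiles of -0.49 and 0.67. In bulk tissue, fewer cells of a type and less RNA per cell cannot be told apart. At least 4-fold differences were seen in 574 genes upward and 313 downward, and at least 8-fold differences in 228 and 64. The split depended on scaling. Scaled by library totals instead, the median moved to 0.76 and these 15388 genes gave 5634 higher and 448 lower. Among the 8501 genes with at least 20 Col-0 counts, which the deeper nrpe1-11 library could not bring in alone, 513 (6.03%) were higher and 1449 (17%) lower, with a median of -0.21. The libraries of both mutants resembled each other more than either resembled Col-0 in depth and ribosomal share. Set against nrpd1-3 in place of Col-0, nrpe1-11 had 537 of 16065 genes higher (3.34%) and 746 lower (4.64%), 7.99% in all. The nrpd1-3 library set against the same Col-0 library had 1483 of 15241 genes higher (9.73%) and 1040 lower (6.82%). Since this second comparison shares the Col-0 library, its values are given below beside those of nrpe1-11 and not as a repeat of them. Whether the Col-0 library alone set a difference was not tested. The value against nrpd1-3, in which Col-0 takes no part, is given below for many groups but not for all.

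**Figure D1:**
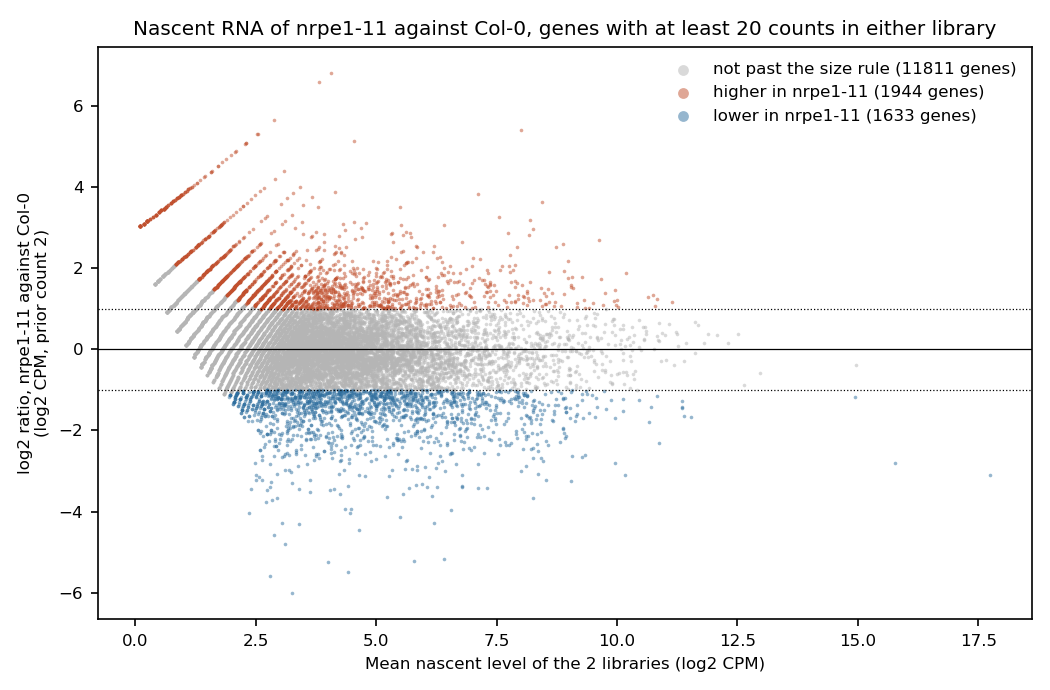
Log2 ratio of nascent RNA, nrpe1-11 against Col-0 (vertical axis, log2 CPM with a prior count of 2), against the mean level of both libraries (horizontal axis, log2 CPM), 1 point per gene. Orange points are the 1944 genes higher and blue points the 1633 genes lower by the size rule, dotted lines mark 2-fold differences, and the slanted rows at the left are genes with very few Col-0 counts.

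NRPE1 (AT2G40030, NRPD1B in RefSeq) had 24 Col-0 counts and 82 in nrpe1-11, or 11.9 and 8.80 CPM. The ratio of 0.737 had a counting interval of 0.463 to 1.21, so a lower level in the mutant was not detectable at this depth. A count over the whole gene cannot tell whether an insertion interrupts it, so it does not check the label. NRPD1 (AT1G63020) had 9 and 19 counts and did not reach the filter. In the library labelled nrpd1-3 it had 94 counts, or 10.7 CPM beside 4.48 in Col-0 and 2.04 in nrpe1-11, so the targeted gene was highest in the library labelled as its mutant (ratio to Col-0 2.38, with a counting interval that excludes equal levels). Where in the gene these reads lie is not known from the counts, so neither label is checked, and every value against nrpd1-3 given here rests on its label.

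Short noncoding RNAs of the nucleolus and the spliceosome were lower in nascent nrpe1-11 RNA, and precursors of microRNAs were higher. Small nucleolar RNAs (snoRNAs) guide the modification and cleavage of ribosomal RNA. Of 26 snoRNA genes measured, 21 were lower and none higher, with a median log2 ratio of -2.00 against 0.05 for all genes. U3B (AT5G53902), a copy of the U3 snoRNA that takes part in cleaving the ribosomal precursor, had 1332 Col-0 counts and 654 in nrpe1-11, which is 663 and 70.2 CPM. U3D (AT5G54075) had 1177 and 644 counts, 586 and 69.1 CPM. The log2 ratios of these copies were -3.23 and -3.08. SNOR111 (AT1G12013) had 139 and 72 counts (log2 ratio -3.11), and SNOR108 (AT5G41471) had 278 and 205 (log2 ratio -2.64). In all 4 genes the Col-0 library held more reads outright, although its depth was lower. Among the 20 snoRNA genes with at least 20 Col-0 counts, 18 were lower. Exceptions included SNOR37-2 (22 and 76 counts, log2 ratio -0.41) and AT1G19373 (18 and 111 counts, log2 ratio 0.40), neither past the rule.

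Small nuclear RNAs (snRNAs), the RNA parts of the spliceosome, followed the same direction with smaller ratios. Of 11 measured, 7 were lower and none higher, and the median log2 ratio was -1.27. U1.5 (AT1G08115) had 901 and 1477 counts, 448 and 158 CPM, a ratio of 0.354 with a counting interval of 0.325 to 0.384. U4.2 (AT3G06900) had 950 and 1798 counts, 473 and 193 CPM (log2 ratio -1.29). U2.7 (AT5G61455) stood at 138 and 39.5 CPM (log2 ratio -1.80), whereas U12 (AT1G61275), of the minor spliceosome, stood at 100.5 and 71.6 CPM (log2 ratio -0.49) and did not pass.

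Steady-state RNA gave no such difference for these classes. Of the 7 snoRNA genes measured there none was lower, the median log2 ratio being 0.10 and the range -0.96 to 0.16, and U3B gave 0.06 from 67 and 68 counts. The 8 snRNA genes measured had a median of 0.15 and a range of -0.29 to 0.54, again with none called. Within the nascent libraries, nrpe1-11 against nrpd1-3 gave medians of -0.02 over 26 snoRNA genes, 1 of them higher and none lower, and 0.02 over 10 snRNA genes with none called. The nrpd1-3 library against the same Col-0 library gave medians of -1.64 and -1.31. Low nascent values thus stood in both mutant libraries and high ones in Col-0, the library that also held the larger ribosomal share. Counts hold only reads aligned to 1 place. Alignments to more places made up 79.8% in Col-0, 47.8% in nrpe1-11 and 48.4% in nrpd1-3. The part of either share in the snoRNA and snRNA values was not tested. Under library totals the medians were -1.29 and -0.54, with 14 snoRNA and 2 snRNA genes still lower and 1 snoRNA gene higher.

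MicroRNA precursors are Pol II transcripts that are cut to short RNAs which silence matching messenger RNAs. Of 28 precursor genes measured, 15 were higher and none lower, with a median log2 ratio of 1.26. Of these genes 22 had entered through nrpe1-11 alone, with under 20 Col-0 counts. Among the 6 with at least 20 Col-0 counts, 4 were higher. MIR398c (AT5G14565), whose product targets copper and zinc superoxide dismutases, had 186 Col-0 counts and 3233 in nrpe1-11, or 92.5 and 347 CPM, a ratio of 3.75 with an interval of 3.23 to 4.37. MIR850 (AT4G13493) had 46 and 1129 counts, 22.9 and 121 CPM (log2 ratio 2.39), and MIR863 (AT4G13494), next to it in gene number, had 30 and 396 counts (log2 ratio 1.49). MIR163 (AT1G66725), with 63 and 206 counts (log2 ratio -0.50), and MIR841a (AT4G13564), with 47 and 259 (log2 ratio 0.25), did not pass. The only precursors measurable in steady-state RNA, MIR398c and MIR850, were both higher there too, MIR398c at 31.4 and 118 CPM and MIR850 at 12.9 and 43.9 CPM. Against nrpd1-3 the median of the 28 genes was 0.18, with 1 gene, MIR162a, higher and none lower. MIR850 stood at 62.4 CPM in nrpd1-3, between the other libraries, and MIR398c at 321 CPM, near nrpe1-11.

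**Figure D2:**
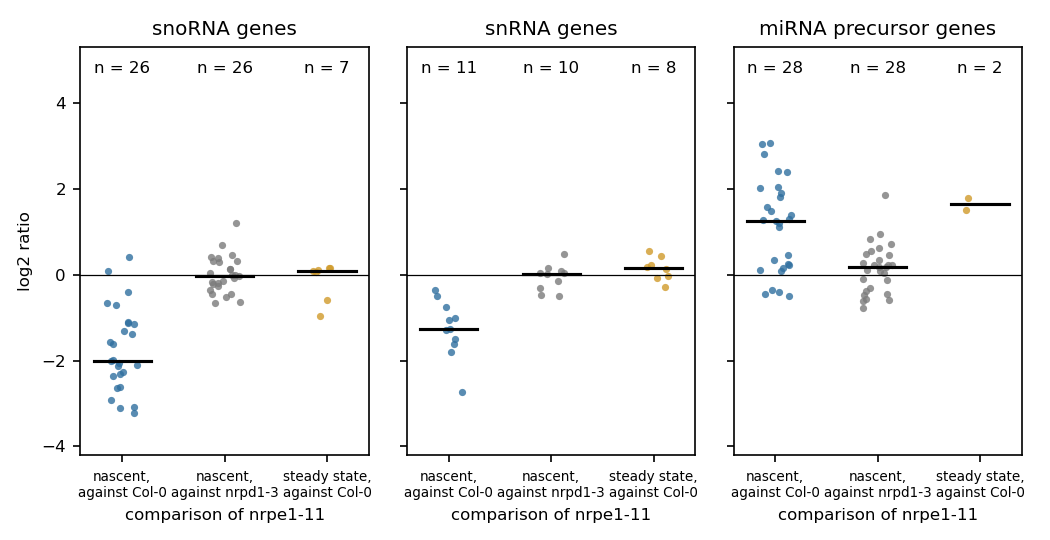
Log2 ratios of nrpe1-11 for snoRNA, snRNA and microRNA precursor genes in 3 comparisons, 1 point per gene and a bar at the median. In nascent RNA against Col-0 the medians are -2.00, -1.27 and 1.26, against nrpd1-3 they are -0.02, 0.02 and 0.18, and in steady-state RNA against Col-0 they are 0.10, 0.15 and 1.65 over the 7, 8 and 2 genes measured.

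Of 112 long noncoding RNA genes, 10 were higher, 21 were lower and the median was -0.18. Of 59 further genes annotated only as noncoding RNA, 6 were higher and 9 lower. The lowest of these was AT3G55485, with 579 Col-0 counts and 247 in nrpe1-11 (log2 ratio -3.43, and -0.70 in steady-state RNA). AT2G43375 had 378 and 318 counts (log2 ratio -2.45) but 126 and 130 in steady-state RNA (0.09). Pseudogenes had 28 of 133 higher and 17 lower, beside 12.6% and 10.6% of all genes. Of these pseudogenes 80 had entered through nrpe1-11 alone, and among the 53 with at least 20 Col-0 counts 5 were higher and 15 lower. Against nrpd1-3, 4 of 132 pseudogenes were higher and 11 lower (background 3.34% and 4.64%). The ribosomal RNA gene AT3G41768 held 784573 Col-0 counts and 425348 in nrpe1-11, a log2 ratio of -3.10. Of the 4 ribosomal RNA genes measured 3 were lower, with a median of -2.04. The 9 transfer RNA genes measured all entered through nrpe1-11 alone, 2 of them being higher (background 12.6%). Their median was 1.49, or 0.74 with genes at 0 Col-0 counts placed at their bound. Reads from ribosomal repeats align to many places, and the share of such alignments differed between the libraries. The part of that share in the ribosomal values was not tested.

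Most jasmonate genes of synthesis, turnover and repression were lower in nascent RNA. Jasmonate is the wound hormone of leaves: it is made from linolenic acid in plastids and peroxisomes, joined to isoleucine by JAR1, and read by a receptor that destroys the JAZ repressors and so frees the MYC transcription factors. MYC factors switch on the genes of synthesis, of turnover and of the JAZ repressors themselves. Of 56 genes in 4 jasmonate lists 51 were measured, of which 27 were lower and 2 higher, and the median log2 ratio was -1.12 beside 0.05 for all genes. Of the 51 genes, 48 had at least 20 Col-0 counts. Of these 48, 27 were lower and 1 higher, with a median of -1.32. Among all 8501 genes with at least 20 Col-0 counts 17% were lower and 6.03% higher, with a median of -0.21. The part of the filter in the jasmonate values was not tested.

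In synthesis, 8 of 14 measured genes were lower and 1 was higher. LOX3 (AT1G17420), a 13-lipoxygenase of the wound response that starts the pathway, had 9102 Col-0 counts and 13358 in nrpe1-11, which is 4528 and 1433 CPM. LOX4 (AT1G72520) stood at 4044 and 1299 CPM and LOX2 (AT3G45140), the abundant leaf lipoxygenase, at 1513 and 464 CPM. These lipoxygenase genes had log2 ratios of -1.66, -1.64 and -1.71. OPR3 (AT2G06050), the peroxisomal reductase of the jasmonate precursor OPDA, had 6267 and 5849 counts, 3118 and 627 CPM, a log2 ratio of -2.31 with a counting interval of the ratio from 0.194 to 0.209. The allene oxide cyclases AOC1, AOC2 and AOC3, neighbours on chromosome 3 with similar sequences, gave -2.51, -2.09 and -2.14. Reads that aligned to more than 1 of these copies went to no gene. ACX1, a peroxisomal oxidase that shortens the side chain, gave -1.69. AOC4 (AT1G13280), on chromosome 1, was the exception, with 4 Col-0 counts and 127 in nrpe1-11 (ratio 6.85, interval 2.61 to 25.5). AOS, the allene oxide synthase, stood at 1217 and 1021 CPM (log2 ratio -0.25) and OPCL1, which activates the precursor for side-chain shortening, at 968 and 1033 CPM (0.09), neither past the rule.

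Conjugation and turnover held the lowest values. Of 10 genes measured 9 were lower and 1 higher, with a median log2 ratio of -2.05. CYP94C1 (AT2G27690), a P450 enzyme that oxidises the active hormone, had 1138 Col-0 counts and 414 in nrpe1-11, 566 and 44.4 CPM (log2 ratio -3.66). Its relative CYP94B3 (AT3G48520) stood at 956 and 295 CPM (-1.69). The amidohydrolases IAR3 (AT1G51760) and ILL6 (AT1G44350), which split the conjugate, stood at 454 and 56.1 CPM and at 422 and 118 CPM. JAR1 (AT2G46370) itself stood at 90.0 and 25.6 CPM (-1.80). The jasmonate oxidase genes AT5G05600, JRG21 and AT2G38240 gave -2.74, -2.27 and -3.94. ST2A (AT5G07010), a sulfotransferase acting on hydroxylated jasmonate, went the other way, from 40 counts to 984, or 19.9 to 106 CPM (log2 ratio 2.39).

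Among JAZ repressors 6 of 11 were lower and none higher. JAZ8 (AT1G30135) had 203 and 126 counts, 101 and 13.5 CPM (log2 ratio -2.87), JAZ10 (AT5G13220) 224 and 49.7 CPM (-2.17), and JAZ7 (AT2G34600) 412 and 106 CPM (-1.96). JAZ5 gave -1.70, TIFY7 (JAZ9) -1.38 and TIFY10B (JAZ2) -1.12. JAZ1 and JAZ6 stood below Col-0 without passing, with log2 ratios of -0.59 and -0.61. In signalling and outputs, 4 of 16 genes were lower: TAT3, a wound-induced aminotransferase (316 and 61.9 CPM), TPS04, a terpene synthase (86.1 and 10.9 CPM), VSP1, a storage protein (18.9 and 8.80 CPM), and AT1G01260 (JAM2), a repressor related to MYC2 (106 and 40.0 CPM). MYC2 itself stood at 1220.3 and 1373 CPM (log2 ratio 0.17), and the receptor gene COI1 at 20.9 and 36.4 CPM (0.79).

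Steady-state RNA of the jasmonate lists was lower too, 22 of 36 genes measured being lower and 2 higher there (background 19.6% lower and 14.3% higher of 3200 genes), with a median of -1.67. The nascent median of the same 36 genes was -1.65. Against nrpd1-3, 6 of the 51 genes were lower and none higher (background 4.64% and 3.34%), with a median of -0.30. The 6 genes were JAZ7, OPR3, CYP94B1, CYP94B3, CYP94C1 and IAR3. OPR3 stood at 1283 CPM in nrpd1-3 and LOX3 at 2804 CPM, in both cases between nrpe1-11 and Col-0, while AOC1 at 108 CPM lay near nrpe1-11. The nrpd1-3 library had 19 of the 51 genes lower than Col-0 and 3 higher, with a median of -0.67. Under library totals the lists of synthesis, turnover and JAZ repressors kept negative medians (-0.92, -1.33 and -0.39), but that of signalling and outputs turned to 0.09. Over all 4 lists 16 genes were then lower and 7 higher, in place of 27 and 2.

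**Figure D3:**
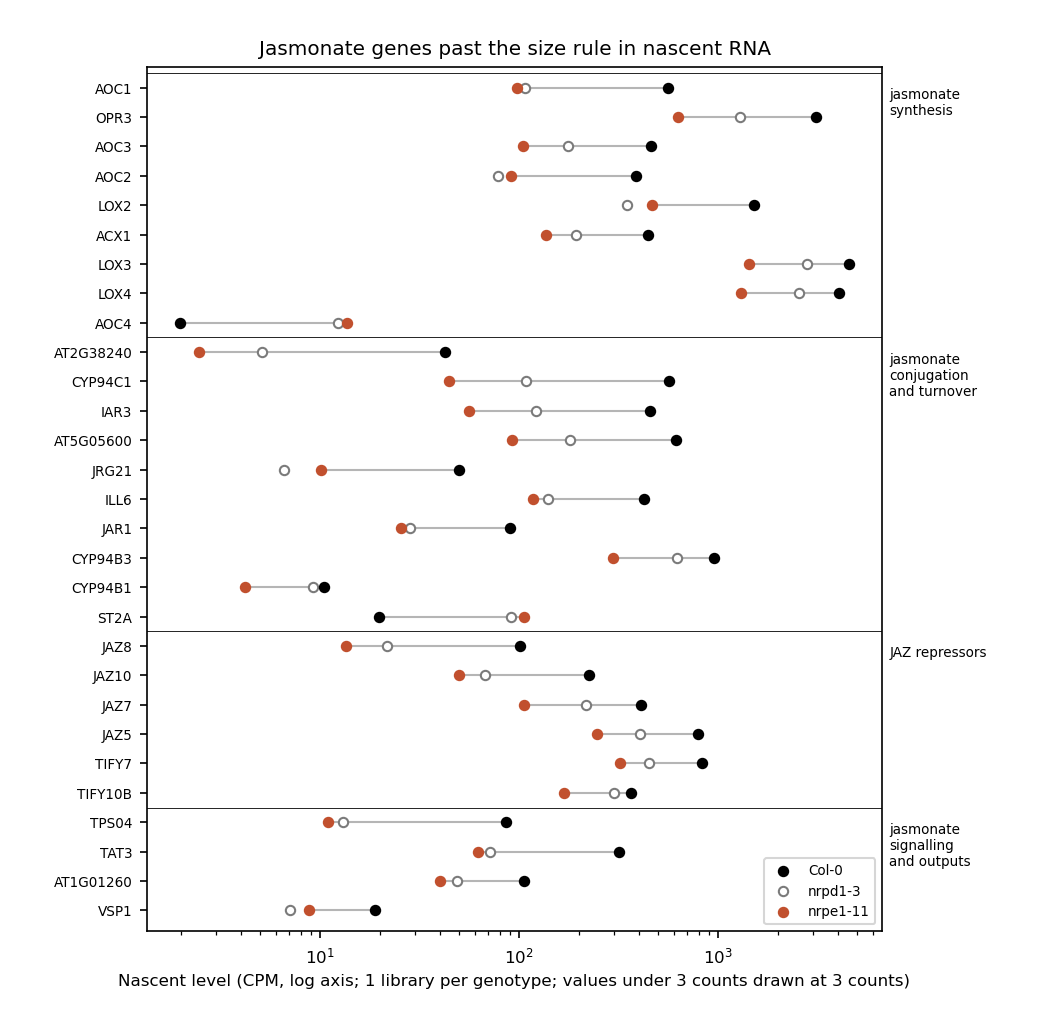
Nascent levels (CPM, log axis) of the 29 jasmonate genes past the size rule, in Col-0 (black), nrpd1-3 (open) and nrpe1-11 (orange), 1 library each. Levels of nrpe1-11 lie left of Col-0 in 27 genes and right of it in AOC4 and ST2A, and most nrpd1-3 levels lie between both or beside nrpe1-11.

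Early stress genes split into opposite directions. The cold regulators CBF1 (AT4G25490), CBF2 (AT4G25470) and DREB1A (CBF3, AT4G25480), tandem genes for activators of frost tolerance, had 189, 541 and 7 counts in Col-0 and 3423, 6428 and 150 in nrpe1-11. Their log2 ratios were 1.96, 1.36 and 2.12. RAV1, an early touch-responsive factor, stood at 233 and 782 CPM (log2 ratio 1.75). DDF1 (AT1G12610), a close relative of the CBF genes, stood at 526 and 147 CPM (-1.83) and the calmodulin-like genes CML37 and AT1G76640 (CML39) gave -1.74 and -1.29. Thus 4 of 14 early cold and touch genes were higher, 3 were lower and the median was 0.30. Steady-state RNA had 0 of 10 higher and 3 lower by the same rule, with a median of -0.49. LTI78 (AT5G52310), a cold-induced target also known as RD29A, was lower in both assays, with 400.5 and 87.3 CPM in nascent RNA. The touch genes TCH4 and TCH3, with 5245 and 4220 Col-0 counts, had nascent log2 ratios of 0.16 and 0.39.

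Ethylene-response factors showed the same split. ERF5, ERF6, ERF104 and AT5G51190 (ERF105) were higher, and RRTF1 (ERF109), a redox-responsive factor induced by jasmonate, was lower. ERF104 (AT5G61600) had 71 Col-0 counts and 3173 in nrpe1-11, 35.3 and 340.4 CPM, a ratio of 9.64 with an interval of 7.62 to 12.4. AT5G51190 had 144 and 4728 counts, 71.6 and 507 CPM (log2 ratio 2.82). RRTF1 (AT4G34410) stood at 2522 and 1128 CPM (log2 ratio -1.16), and at 2387 CPM in nrpd1-3. Of 15 WRKY factors, which regulate defence, 4 were higher and 2 lower. Among the 12 of them with at least 20 Col-0 counts 2 were higher and 2 lower. WRKY70 (AT3G56400), a factor at the balance of salicylate and jasmonate signalling, had 303 and 3812 counts, 151 and 409 CPM (log2 ratio 1.44), and was also higher in steady-state RNA (53.6 and 238 CPM). WRKY18 (AT4G31800), a repressor of defence, had 3474 and 2316 counts, 1728 and 248 CPM (-2.80), and was lower in steady-state RNA (592 and 78.2 CPM). Salicylate genes had 1 of 14 lower, the transporter EDS5 (85.6 and 22.9 CPM), and none higher. Abscisic acid genes had 5 of 12 higher and 2 lower, but 3 of the 12 had entered through nrpe1-11 alone. Among the 9 with at least 20 Col-0 counts 3 were higher and 2 lower, with a median of -0.22. ABI1, a phosphatase that restrains the response, stood at 48.8 and 205 CPM (2.06) and P5CS1, of proline synthesis, at 76.1 and 316 CPM (2.05), while RD26 stood at 336 and 154 CPM (-1.12). Among heat-shock and chaperone genes 4 of 15 were higher, at most 2.86-fold (HSP90.1), and HSP70 (AT3G12580) was lower (log2 ratio -1.13). With at least 20 Col-0 counts, 2 of 10 were higher and 1 lower. All genes with at least 20 Col-0 counts had 6.03% higher and 17% lower. None of these early stress lists held more than 2 genes called against nrpd1-3. The medians of the WRKY and salicylate lists, -0.05 and -0.23, turned positive under library totals.

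Genes of carbon starvation were higher. When sugar falls, in darkness or at the end of the night, leaves switch on genes for the breakdown of cell-wall sugars and branched-chain amino acids. Of 19 such genes measured, 9 were higher and none lower, with a median log2 ratio of 0.85, and 18 of the 19 had at least 20 Col-0 counts. BXL1 (AT5G49360), a β-xylosidase of the cell wall, had 426 Col-0 counts and 12783 in nrpe1-11, 212 and 1371 CPM, a ratio of 6.47 with an interval of 5.88 to 7.14. BGAL4 (AT5G56870), a β-galactosidase, had 36 and 1416 counts (ratio 8.48, interval 6.10 to 12.2). AT1G80440 (KMD1), an F-box gene, stood at 69.1 and 539.8 CPM, and its relative AT3G59940 (KMD4) at 146 and 349 CPM. SEN1 and DIN10, markers of dark-treated leaves, stood at 81.6 and 245 CPM and at 111 and 361 CPM. IVD, of leucine breakdown, and GDH2, a glutamate dehydrogenase, gave log2 ratios of 1.69 and 1.14, and AKINBETA1, a subunit of the energy-sensing kinase SnRK1, stood at 34.3 and 97.5 CPM. ASN1 (DIN6), the dark-inducible asparagine synthetase, stood at 599 and 892 CPM (0.57) without passing.

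Unlike the short RNAs, this list also differed from nrpd1-3, with 6 of 19 genes higher and none lower (background 3.34% and 4.64%) and a median of 0.81. The 6 genes were SEN1, DIN10, BGAL4, AKINBETA1, IVD and DYL1. BXL1 stood at 711 CPM in nrpd1-3 and DIN10 at 158 CPM. Steady-state RNA had 11 of 18 genes higher and none lower, with a median of 1.49. Nitrogen genes were mixed, with 7 of 20 higher and 2 lower. NIA2 (AT1G37130), the main nitrate reductase, had 2299 and 22248 counts, 1144 and 2387 CPM (log2 ratio 1.06), and NIA1 stood at 121 and 351 CPM (1.54). BT2 (AT3G48360), a nitrate-responsive regulator, stood at 240.3 and 829 CPM (1.79) and at 299.9 CPM in nrpd1-3. The nitrate-induced repressors LBD38 and LBD39, the asparagine synthetase ASN2 and the glutamine synthetase GSR2 were the other genes higher. NRT1.8 (AT4G21680), a nitrate transporter, went against this direction, with 97 Col-0 counts and 18 in nrpe1-11 (48.3 and 1.93 CPM, log2 ratio -4.45), and GLU1, of glutamate synthesis, stood at 294 and 146 CPM (-1.01).

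Of 18 genes of growth-promoting bHLH factors and brassinosteroid response, 8 were higher and none lower, with a median of 0.85. Of these 18, 7 had entered through nrpe1-11 alone, and among the 11 with at least 20 Col-0 counts 4 were higher, with a median of 0.71. HBI1 (AT2G18300), a bHLH factor that promotes cell elongation, had 34 Col-0 counts and 913 in nrpe1-11, 16.9 and 97.9 CPM (ratio 5.79, interval 4.11 to 8.41), and 42.8 CPM in nrpd1-3. BES1 (AT1G19350), a transcription factor of brassinosteroid signalling, stood at 37.8 and 113 CPM, and PIL5 (PIF1), a phytochrome-interacting factor, at 15.4 and 50.3 CPM. BEE1, an early brassinosteroid gene, went from no Col-0 read to 61 in nrpe1-11, a difference of at least 4.39-fold. PIF4 and PIF7 did not differ past the rule, with log2 ratios of 0.00 and 0.03. Of 23 auxin-response genes measured, 12 were higher and 2 lower, but 14 had entered through nrpe1-11 alone, and of the 9 with at least 20 Col-0 counts 3 were higher and 2 lower. The median over the 23 genes was 1.43, or 1.07 with the gene at 0 Col-0 counts placed at its bound. WES1, whose GH3 enzyme conjugates auxin, had 104 and 6034 counts, 51.7 and 647 CPM, a ratio of 12.5 with an interval of 10.3 to 15.3. Its relative DFL1 stood at 14.4 and 79.1 CPM, whereas GH3.3 and DFL2 were lower (-1.16 and -2.35). The small auxin genes SAUR19, AT5G18030 (SAUR21), SAUR22, SAUR23 and SAUR24 are a cluster of near-identical copies. They had between 2 and 13 counts in Col-0 and between 58 and 186 in nrpe1-11. Only reads that aligned to 1 place were counted. Alignments to more than 1 place made up 79.8% in Col-0 and 47.8% in nrpe1-11. Under library totals, which gave 5634 of all 15388 genes higher, 15 of 19 carbon-starvation genes and 14 of 20 nitrogen genes were higher. So were 13 of 18 growth genes and 19 of 23 auxin genes. The medians of these lists then lay 0.81, 0.67, 0.73 and 1.37 above that of all genes. Against nrpd1-3, 1 growth gene (HBI1) and 2 auxin genes were higher and 1 auxin gene was lower. Of 20 nitrogen genes 3 were higher and 1 lower than in nrpd1-3, with a median of 0.45.

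**Figure D4:**
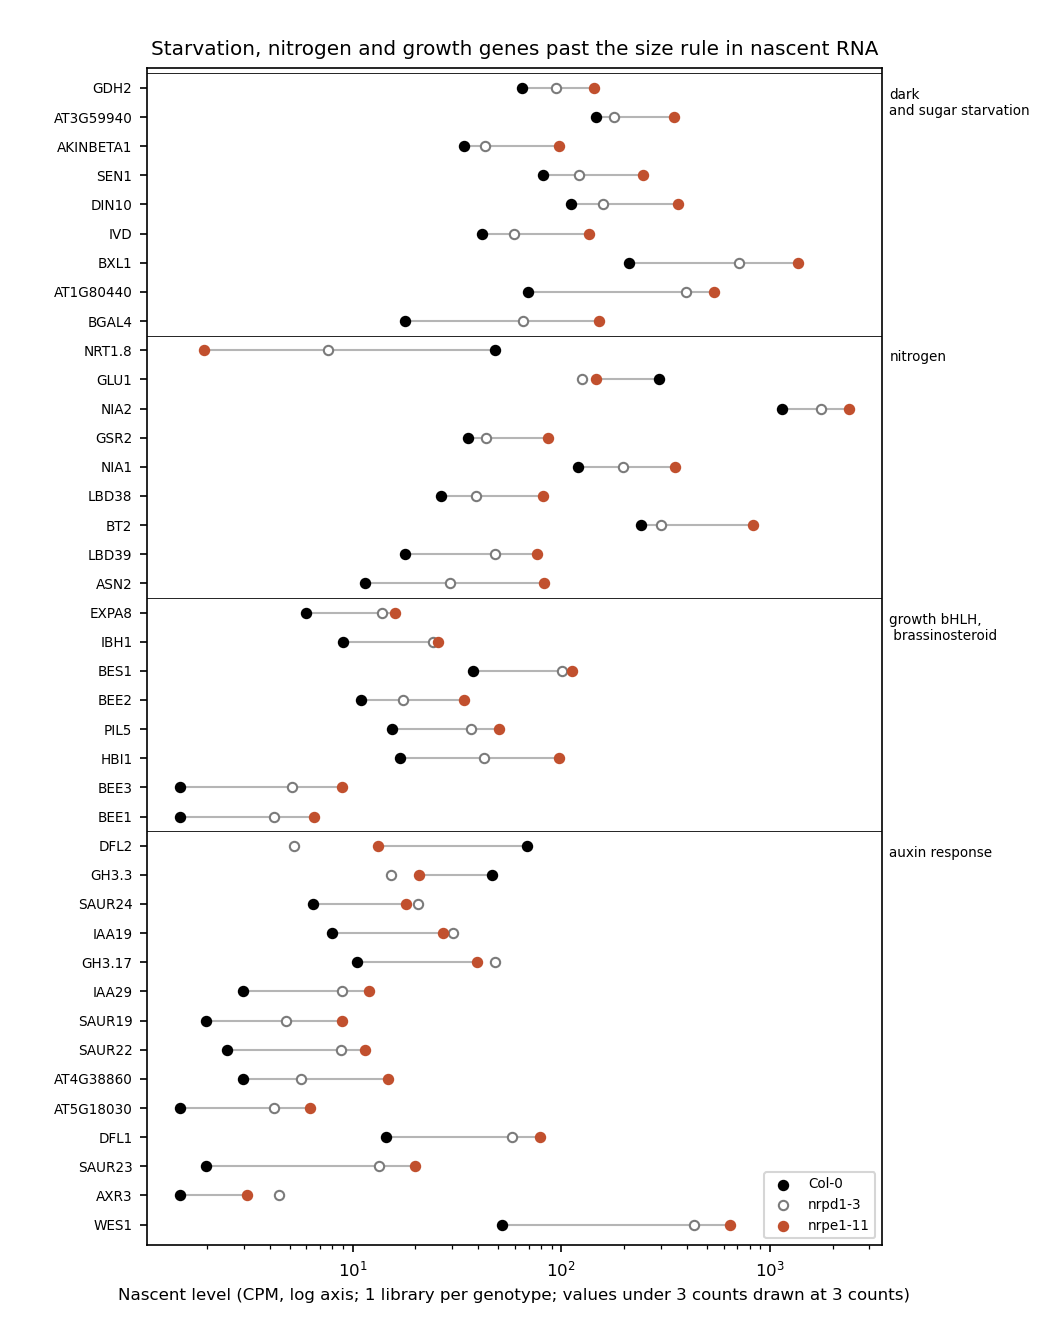
Nascent levels (CPM, log axis) of genes past the size rule in the carbon-starvation, nitrogen, growth and auxin lists, in Col-0 (black), nrpd1-3 (open) and nrpe1-11 (orange), 1 library each. In the top list all 9 genes have nrpd1-3 between both other libraries, and NRT1.8, GLU1, DFL2 and GH3.3 are the genes whose nrpe1-11 level lies left of Col-0.

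Photosynthesis genes were near the bulk of genes in nascent RNA. Of 40 genes of the photosystems and their antennae 2 were higher, LHB1B1 and LHCB2.1, and none lower, with a median of 0.08. Under library totals 12 of the 40 were higher, beside 5634 of all 15388 genes. The list median then lay 0.06 above that of all genes. LHCB2.1 (AT2G05100), an antenna protein of photosystem II, stood at 361 and 795 CPM and LHB1B1 (AT2G34430) at 454 and 995 CPM. These belong to families of similar genes, and reads that aligned to more than 1 copy went to no gene. In steady-state RNA 5 of 39 were higher and the median was 0.54. The medians of the 17 Calvin-cycle genes had opposite signs in the 2 assays, -0.59 in nascent and 0.49 in steady-state RNA. The counts called were near the background, 3 of 17 lower in nascent RNA beside 17% of all genes with at least 20 Col-0 counts, as all 17 had, and 3 of 17 higher in steady-state RNA beside 14.3%. Under library totals the nascent median was 0.14, still 0.62 below that of all genes. The Rubisco activase gene RCA stood at 973 and 687 CPM in nascent RNA (-0.50) and had a steady-state log2 ratio of 0.49. RBCS3B (AT5G38410) and RBCS2B (AT5G38420), neighbouring small-subunit genes of Rubisco with near-identical sequences, stood at 203 and 77.1 CPM and at 127 and 60.3 CPM, and the aldolase FBA2 at 330.3 and 158 CPM. Against nrpd1-3 no gene of either list was called, and the medians were 0.29 and 0.45.

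Chlorophyll synthesis had 3 of 18 genes higher and none lower, beside 12.6% and 10.6% of all genes. The 3 higher genes were all protochlorophyllide oxidoreductases, which carry out the light-dependent step. Only PORB of these had 20 Col-0 counts, and it was the 1 gene higher among the 14 that did, beside 6.03% of all such genes. The counts of higher genes were thus near the background. PORB (AT4G27440) had 72 Col-0 counts and 1199 in nrpe1-11, 35.8 and 129 CPM (ratio 3.59, interval 2.83 to 4.62), and 22.2 and 141 CPM in steady-state RNA. PORA stood at 9.45 and 22.7 CPM and POR C at 8.95 and 24.2 CPM. In nrpd1-3 PORB stood at 42.1 and PORA at 8.40 CPM, close to Col-0, and both were higher in nrpe1-11 than in nrpd1-3. Under library totals 14 of the 18 genes were higher, beside 5634 of all 15388 genes, and the list median lay 0.52 above that of all genes. Genes of earlier steps, such as HEMA1, the entry enzyme, at 1033 and 1516 CPM (0.55), did not pass.

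Clock genes did not share a direction. The morning factors CCA1 and LHY stood at 37.3 and 41.4 CPM and at 32.8 and 34.9 CPM, with log2 ratios of 0.15 and 0.09. TOC1, their evening counterpart, stood at 85.6 and 45.3 CPM (-0.91) and GI at 22.4 and 24.5 CPM (0.13). Of 12 morning genes RVE1 and EPR1 were higher and RVE8 lower, and of 13 day and evening genes 5 were higher, ELF3, PCL1 (LUX), BOA, CDF1 and CDF3. Of these 5 only CDF3, a repressor of flowering, had 20 Col-0 counts or more (34 and 449 counts). Harvest time was not given in the sources used here. Of 14 light-signalling genes PHYA (AT1G09570), the far-red photoreceptor, stood at 78.6 and 250.2 CPM (1.67) and BBX21 was also higher. Starch genes had 3 of 16 higher and 2 lower. BAM5 (AT4G15210), a β-amylase, was among the lowest of all genes, with 63 Col-0 counts and 5 in nrpe1-11 (31.3 and 0.536 CPM). Aquaporins had 2 of 14 higher, PIP1C and DELTA-TIP, and 2 lower, RD28 and GAMMA-TIP. The morning-clock, light-signalling, starch and aquaporin counts were near the background over all genes, 12.6% higher and 10.6% lower. Against nrpd1-3, 3 of 14 aquaporin genes were higher and none lower (background 3.34% and 4.64%), with a median of 0.57. Of 15 glucosinolate genes MYB51, their regulator in defence, was higher (80.6 and 247 CPM).

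Genes of DNA methylation were called in both directions. Of 29 genes of RNA-directed DNA methylation 16 were members, 10 of them through nrpe1-11 alone, with a median of 0.17. Of the 16, 3 were higher and 2 lower, and of 12 other DNA methylation genes 1 was higher and 2 lower (background 12.6% and 10.6%). None of these higher genes had 20 Col-0 counts. NRPE5 (a Pol V subunit, 13 and 143 counts), RDR2 (the RNA polymerase that works with Pol IV, 0 and 25 counts) and DMS11 (MORC6, 8 and 80 counts) were higher. IDN2, which binds the scaffold RNA (26 and 50 counts), and CRT1 (MORC1, 37 and 76 counts) were lower. KTF1, an elongation-factor relative that binds ARGONAUTE4, stood at 23.9 and 29.9 CPM and AGO4 at 11.4 and 21.3 CPM, neither past the rule. Among the 12 other genes MET1, the maintenance methyltransferase, was higher from 7 and 71 counts. DML1 (ROS1, AT2G36490), a glycosylase that removes methylcytosine and whose own promoter is known to need RNA-directed DNA methylation, was lower, with 58 Col-0 counts and 72 in nrpe1-11 (28.9 and 7.72 CPM, log2 ratio -1.86). DML1 was lower in steady-state RNA as well (40.7 and 7.63 CPM) and stood at 4.65 CPM in nascent RNA of nrpd1-3. The histone methyltransferase gene ATXR5 was also lower (26 and 38 counts). Of 4 loci known as silenced by DNA methylation SDC was a member, with 0 counts in Col-0, 78 in nrpe1-11 and 69 in nrpd1-3, at least 5.61-fold higher in nrpe1-11. FWA had 0 and 2 counts, QQS 3 and 0, and the retrotransposon gene AT5G17125 0 in both libraries, under the floor of 3 counts or at it.

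The machinery of transcription itself differed little. None of 13 genes of Pol II and its elongation factors passed, with a median of 0.15 and a range of -0.99 to 1.22. NRPB1, the largest Pol II subunit, stood at 120.4 and 133 CPM. Of 21 genes of 3′ end formation 3 were lower and none higher, beside 10.6% and 12.6% of all genes. All 3 were among the 14 with at least 20 Col-0 counts, beside 17% lower of all such genes. The count of lower genes was thus near the background. PAPS1 (AT1G17980), a nuclear poly(A) polymerase, had 744 Col-0 counts and 689 in nrpe1-11, 370.1 and 73.9 CPM (log2 ratio -2.32), and was lower in steady-state RNA (289 and 42.0 CPM) and against nrpd1-3 (215 CPM). PAPS2 stood at 102 and 29.7 CPM (-1.77) and CSTF77, a subunit of the cleavage stimulation factor, at 13.4 and 6.11 CPM (-1.10). The exonucleases XRN2 and XRN3, which degrade RNA behind the cleavage site, gave 0.76 and 0.34, and the cleavage endonuclease CPSF73-I gave 0.80. Counts per gene hold no reads beyond gene ends, so termination itself was not measured here.

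**Figure D5:**
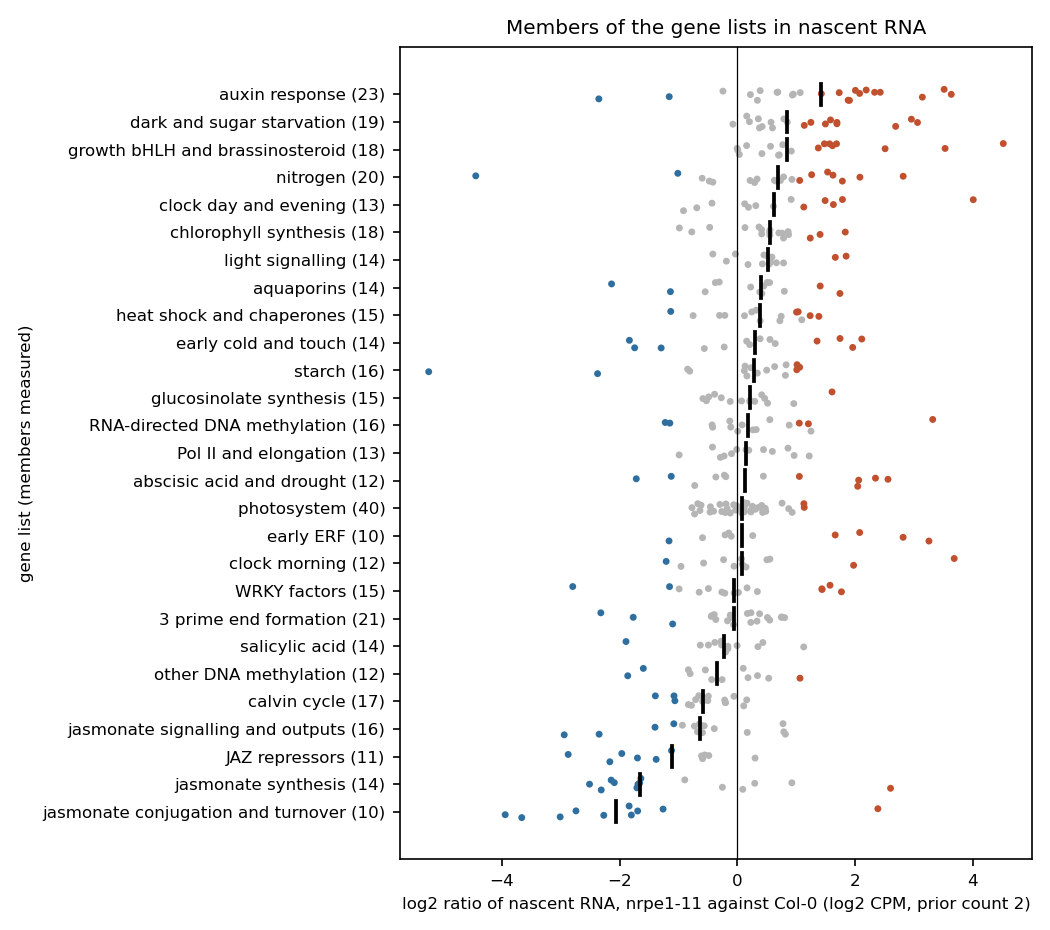
Nascent log2 ratios (horizontal axis, nrpe1-11 against Col-0, log2 CPM with a prior count of 2) of the members of each gene list with at least 10 genes measured, ordered by list median (black bar). Orange and blue points passed the size rule upward and downward, grey points did not; the 3 lowest medians, -2.05, -1.65 and -1.12, are those of jasmonate turnover, jasmonate synthesis and JAZ repressors, and the highest, 1.43, is that of auxin response, most of whose genes had under 20 Col-0 counts.

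Outside the lists, the widest differences upward were mostly genes with no Col-0 reads. Of the 1944 genes higher, 1431 had under 20 Col-0 counts and 174 had 0, of which 156 were protein-coding and 14 pseudogenes. At equal levels, 20 counts in nrpe1-11 correspond to 4.31 in Col-0. AT1G33840 had 0 and 309 counts, at least 22.2-fold higher, with 182 counts in nrpd1-3. The pseudogenes AT5G35205 and AT5G35935 had 0 Col-0 counts beside 263 and 137 in nrpe1-11 and 182 and 163 in nrpd1-3, at least 18.9-fold and 9.85-fold higher. WOX2 (AT5G59340), a homeobox gene of the embryo, had 0, 90 and 80 counts in the same order. Of the 174 genes 128 also had no Col-0 reads in steady-state RNA. With at least 20 Col-0 counts, the highest ratio was that of AT5G27850, which had 23 Col-0 counts and 4652 in nrpe1-11 (11.4 and 499 CPM, ratio 43.6, interval 29.0 to 68.9) and stood at 178 CPM in nrpd1-3. Its steady-state counts were 7 and 162. XYL1 (AT1G68560), an α-xylosidase of the cell wall, followed with 36 and 2420 counts (ratio 14.5, interval 10.4 to 20.7).

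Downward, AT4G14368 had 84 Col-0 counts and 6 in nrpe1-11 and sks9, of a multicopper oxidase family, 334 and 40. The pseudogene AT5G41755 had 215 reads in Col-0, 24 in nrpe1-11 and 274 in nrpd1-3, or 107, 2.57 and 31.1 CPM. AT3G45660 stood at 41.8, 2.25 and 16.9 CPM in that order of libraries and AT5G52020 at 85.6, 4.61 and 24.6 CPM. In all 3 genes nrpd1-3 lay between, and nrpe1-11 lay well below nrpd1-3, with log2 ratios between these mutants of -3.45, -2.75 and -2.34. The steady-state counts of AT5G41755 were 37 in Col-0 and 0 in nrpe1-11.

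Nascent and steady-state calls were set side by side where both could be measured. Of 311 genes higher in nascent RNA and measured in steady-state RNA, 200 (64.3%) were higher there too, 1 was lower and 110 passed neither way. Of 561 genes lower in nascent RNA, 371 (66.1%) were lower, 2 higher and 188 neither. Taken from the steady-state side, these shared genes were 43.7% of the 458 genes higher and 59.2% of the 627 lower. The assays share genotype, and whether they came from the same plants was not given in the sources used here. Among protein-coding genes measured in both assays, lower genes were more often those with little steady-state RNA for their nascent signal. For this, 3140 protein-coding genes with at least 20 steady-state counts in either library compared were split into 5 groups of 628. The split used their ratio of steady-state to nascent RNA in nrpd1-3, whose libraries are no side of either comparison. Genes lower in nascent RNA numbered 171 and 166 in the groups with the smallest ratios and 39 and 55 in those with the largest. Higher genes numbered 53 and 61 against 76 and 42. In steady-state RNA the lower genes numbered 282 and 225 against 15 and 9, and the higher genes 31 and 58 against 118 and 118. A gene with little steady-state RNA in nrpd1-3 may have reached 20 counts only through a high level in a compared library. The part of this filter in the pattern was not tested.

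Gene length and position went with the calls as follows. Genes of up to 500 bases were called most often, 25.4% of 134 higher and 26.1% lower. This class holds 25 of the 26 snoRNA and 27 of the 28 microRNA genes. Of the 134 genes 86 had entered through nrpe1-11 alone, and among the 48 with at least 20 Col-0 counts 6 were higher and 30 lower. The share higher was 9.62% for genes over 4000 bases, and the share lower 10.8%. Of those 2734 genes 676 had entered through nrpe1-11 alone, and among the 2058 with at least 20 Col-0 counts 103 were higher and 284 lower. All 5 chromosomes were alike, with 12.2% to 13.4% of genes higher and 8.84% to 11.5% lower. Neighbouring genes leaned the same way: among 9210 pairs of adjacent genes both measured, the next gene was higher in 19.9% of cases after a higher gene, beside 12.5% over all pairs, and lower in 22.8% after a lower gene, beside 10.7%. Pearson's r between neighbours was 0.17 and Spearman's rho 0.16, a description across genes of the same pair of libraries.

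Runs of 4 or more adjacent genes called the same way numbered 5 upward, with 21 genes, and 9 downward, with 37. AT1G72900, AT1G72910, AT1G72920, TIR and AT1G72940, a stretch on chromosome 1, were all higher, with log2 ratios of 1.66 to 2.52. AT1G72910 had 255 and 6801 counts and TIR (AT1G72930), a gene named for the TIR domain of immune receptors, 147 and 3425. A run of 5 lower genes on chromosome 4 held DBR1, MGD1, a galactolipid synthase (338 and 69.3 CPM), AT4G31790, WRKY18 and AT4G31805. The genes DAR6, DAR5 and DAR3, with AT5G66631 among them, were lower on chromosome 5, with log2 ratios of -1.64 to -2.45. IAR3 and its relative ILL5 stood in a lower run with AT1G51770 and AT1G51790, and the snoRNA genes AT4G39361, AT4G39363, AT4G39364 and AT4G39366 formed another. Upward runs also included IDD5 and IDD4, zinc-finger genes, with AT2G02060 and AT2G02061. Similar sequence and read-through from an adjacent gene can both couple neighbouring counts, and neither was tested, since the counting strand was not given in the sources used here.

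Markers of cell types were checked beside these groups. The flower genes AP1, SEP3 and LFY had 0 counts in both libraries, as did the root-hair gene EXPA7 and the senescence gene SAG12. Summed levels of the epidermis genes stood at 59.2 CPM in Col-0 and 105 CPM in nrpe1-11, but within the list ATML1 and KCS6 were higher and PDF1 and CER1 lower. Guard-cell genes summed to 111 and 37.3 CPM, mostly from TGG1, a myrosinase (203 and 240 counts), while KAT1, a potassium channel, was higher. Vasculature genes summed to 25.9 and 28.0 CPM, dividing-cell genes to 9.45 and 14.2 CPM and root genes to 21.9 and 29.4 CPM. Senescence genes summed to 58.2 and 155 CPM, mostly from NAP, a factor that drives leaf ageing (68 and 1272 counts), whereas SAG13 and NAC6 (ORE1) did not pass. The part of leaf age and cell composition in the carbon-starvation and jasmonate values was not tested.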

How the data were processed

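Nascent RNA (nuclear run-on) and steady-state nuclear RNA of Col-0, nrpd1-3 and nrpe1-11 leaves were compared, with 1 library per group. The deposited files hold read counts per gene, which the authors made with HTSeq after Trimmomatic 0.33 and TopHat2 2.1.0 on build TAIR10, per the submitters' processing notes. A stranded kit was used per the labels' protocols. The sources used here do not state the strand setting, counting mode or annotation release. Summary lines (reads in no gene, 25.8% of uniquely aligned reads in nascent Col-0 and 18.6% in nrpe1-11, ambiguous reads and reads aligned more than once) were left out of library sizes. Multiply aligned reads went to no gene, so repeated genes are under-counted. Depth ranged from 2687149 to 8185846 gene counts in nascent and from 386011 to 709905 in steady-state libraries.

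TMM factors were set per assay in edgeR 4.0.16 (R 4.3.3), over genes reaching 20 counts in any of the 3 libraries, and log2 CPM used a prior count of 2. The ratio's 95% interval is an exact (Clopper-Pearson) conditional binomial interval. The size rule, at least 2-fold with an interval excluding 1, was tested on simulated data. Steady-state RNA used the same rule on 3200 genes. DESeq2 1.42.0 gave alternative size factors. Names, biotypes and gene order came from RefSeq (assembly TAIR10.1), which matched 15365 of 15388 members. Promoter motifs and the orientation of neighbours were not analysed here, nor were the chromatin samples.

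Members and the 37 gene lists (526 genes, 454 measured) were chosen with earlier results of these data known. A rule picked genes to name, and the text names only part of them. It took the targets, the 12 highest and 12 lowest with at least 50 counts, and the 8 with most counts. Up to 4 called and 2 uncalled genes of each list by level were also taken. So were runs of at least 4 and genes called opposite ways in both assays. Further list members, class members and the highest ratios with at least 20 Col-0 counts were named after their values were seen. Alternatives were other scalings, filters, prior counts, a 3-fold rule, thinning to equal depth, and, chosen after seeing the data, nrpd1-3 in place of Col-0.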

Additional observations from a re-analysis of the deposited data

Results flagged for a closer look

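Of the genes measured in both assays, 3 passed the size rule in opposite directions in nascent and steady-state RNA of nrpe1-11 against Col-0. With 1 library per group the difference between assays was not tested. ABCG24 (AT1G53390), an ABC transporter gene, had a nascent log2 ratio of -1.03 from 106 and 239 counts in Col-0 and nrpe1-11, and a steady-state log2 ratio of 1.04 from 12 and 26 counts. AT1G77680 had a nascent log2 ratio of -1.27 from 241 and 461 counts and a steady-state log2 ratio of 1.38 from 7 and 21 counts. AT1G78820 had a nascent log2 ratio of 1.34 from 75 and 883 counts and a steady-state log2 ratio of -1.02 from 23 and 10 counts. Each steady-state interval came close to a ratio of 1, the nearest bounds being 1.09, 1.27 and 0.980.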

How the results depend on the processing

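Counts of genes called moved by over 1.5 times under these settings. The 1944 genes higher became 5634 with library totals, 513 among genes with at least 20 Col-0 counts, 1244 with nrpe1-11 thinned to the Col-0 depth, 973 under a 3-fold rule and 537 with nrpd1-3 in place of Col-0, a setting chosen after seeing the data. The 1633 genes lower became 448 with library totals, 571 under a 3-fold rule and 746 with nrpd1-3 in place of Col-0. The median log2 ratio of 0.05 moved to 0.76 with library totals, 0.17 with upper-quartile factors and -0.21 among genes with at least 20 Col-0 counts. DESeq2 size factors, TMM over both libraries alone, filters of 10 or 50 counts or none, prior counts of 0.5 and 5, and leaving out the 20 most abundant genes kept both counts within 1.5 times. All 448 genes lower with library totals were among the 1633, so scaling sets how many genes are called lower, and no replicate exists to choose between scalings. No paired analysis was possible because each genotype had 1 library per assay. With 1 library of 2687149 gene counts as the control, genes under 9.95 CPM there have fewer than 20 counts, and their ratios rest on few reads.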

Other observations

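Among 151 gene families that share a RefSeq symbol stem and have at least 8 members measured, some leaned 1 way. These were picked after their values were seen, so their counts describe these libraries and support nothing further. Expansins of the EXPA family, which loosen cell walls, had 5 of 9 genes higher and none lower, although 7 of the 9 had entered through nrpe1-11 alone, and CIPK kinases of calcium signalling had 8 of 16 higher and 1 lower. Scaled by library totals these became 5 and 0 EXPA genes and 10 and 1 CIPK genes, beside 5634 and 448 of all 15388 genes. Of the KCS enzymes, which lengthen fatty acids for wax and cutin, 5 of 14 were higher and none lower, 7 and none under library totals. Genes of the MAPKKK family of signalling kinases had 5 of 9 lower and none higher (1 and none under library totals). MLO genes, known for powdery mildew susceptibility, had 4 of 8 lower and none higher, but 2 lower and 2 higher under library totals. SEC genes of vesicle traffic had 5 of 14 lower and 1 higher, 1 of each under library totals with a median that turned to 0.06, and BGLU β-glucosidases had 5 of 13 lower and none higher, turning to 3 lower and 4 higher under library totals with a median of 0.23. Against nrpd1-3, none of the EXPA, KCS, MAPKKK or BGLU genes was called, 2 CIPK genes were higher, and 1 MLO and 1 SEC gene were lower.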
